A study of Homo sapiens with 17 samples.

Results

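Transcripts bound by an antibody against N4-acetylcytidine (ac4C) were compared with the RNA they were taken from, in WT HEK293T cells that had no knockdown. ac4C is an acetylated form of cytidine, and NAT10 is the enzyme known to write it on human RNA. In acRIP-seq, poly(A) RNA is incubated with the antibody, the bound RNA is recovered on beads, and its sequence is read beside that of the starting RNA (input). HEK293T is an embryonic kidney line carrying the SV40 large T antigen. The 6 libraries were chosen by their labels, 3 WT anti-ac4C pull-downs (IP) and 3 WT inputs, of 17 samples in the series, and 2 WT pull-downs with control IgG served as the background of the procedure. All 8 libraries come from 1 cell line, and nothing in the labels ties a replicate to a separate culture, so p-values measure only the spread between these libraries.

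The 3 input libraries held 27718784 to 36583436 counts, the 3 IP libraries 19615316 to 21066215 and the 2 IgG libraries 9022250 to 9466855, so low transcripts were measured least well in IgG. Of 23368 genes in the table, 14751 had enough counts to be tested. Levels are given as CPM, the counts of a gene per 1000000 counts of the library after scaling. The labelled cell line was checked on VIM (872 CPM, mean of the 3 inputs), KRT8 (214 CPM) and NEFM (73.2 CPM), genes known to be active in this line, while PTPRC, INS and PECAM1, which mark blood, islet and endothelial cells, had 0 counts in all 3 inputs. Of the other genes taken for this line, NEFL, KRT18, ENO2 and CDH2 were at 25.4 to 135 CPM, but PAX2 was at only 0.976 CPM. GFAP and COL3A1, genes of astrocytes and fibroblasts, were present at 1.62 and 1.64 CPM.

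A pull-down divides the transcriptome into RNA that is over-represented and RNA that is under-represented, and both sides were large here. With a threshold of 2-fold and an adjusted p of 0.05 (edgeR quasi-likelihood test), 4459 genes were higher in IP than in input, 30.2% of those tested, and 4026 were lower, 27.3%. The median gene did not move (log2 fold change 0.01). Enrichment went further than 16-fold for 608 genes and depletion for 481. Genes called higher held 6.18% to 6.23% of the counts of the input libraries and 38.4% to 39.3% of those of the IP libraries. Genes called lower held 45.9% to 46.1% of input counts and 15.7% to 16% of IP counts. The same genes called higher held 22.3% and 22.8% of the counts of the 2 IgG libraries. Each library is scaled to its own total, so a transcript that was bound more and others that were bound less cannot be told apart.

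IgG libraries differed from input as well. Against the same 3 inputs, 3594 genes (24.4%) were higher in IgG and 5400 (36.6%) were lower, with a median of -0.39 on the log2 scale. Higher calls made up 40.0% of these, and 51.8% once the trend with GC content or the trend with length was removed, a step that also centres all genes. IP set directly against IgG gave 5186 genes higher (35.2%) and 2629 lower (17.8%). Higher calls made up 66.4% of them, and 48.9% and 49.0% after the same centring steps for GC content and length. The 2 steps moved the median of all genes by 0.429 and 0.427 for IgG over input and by -0.47 and -0.465 for IP over IgG. Centring was not tested apart from the trends, so these splits cannot be read as a result of GC content or length. IP over input and IgG over input share their input libraries, so list medians of both are given side by side.

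The most enriched transcript by mass was EIF5B, which encodes the GTPase that joins the ribosomal subunits at the start of translation. It took 0.00542% to 0.00563% of the counts in the inputs, 2.48%, 2.72% and 2.81% in the IP libraries and 0.0688% and 0.0866% in IgG. ZC3H13, a subunit of the m6A methyltransferase complex, was at 25.4, 26.0 and 29.8 CPM in input and at 8064, 8659.8 and 8799 CPM in IP. PALM3, a paralemmin, stood at 0.873, 0.395 and 0.443 CPM in input and at 252, 253 and 264 CPM in IP. Every IP library of these 3 genes was far above every input and every IgG library. The log2 enrichment was 8.81 (SE 0.0904) for EIF5B, 8.29 (SE 0.0784) for ZC3H13 and 8.85 (SE 0.123) for PALM3 (edgeR, adjusted p = 1.08e-27, 2.54e-28 and 9.11e-26). Over IgG the same transcripts were higher by 4.97, 3.75 and 3.06 on the log2 scale.

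The 60 coding bases that hold the most copies of the hexamer GAAGAA, of its form shifted by 1 base, AAGAAG, and of the form shifted by a further base, which is AGAAGA (sense strand, any overlap between them allowed), are shown for 3 of the leading transcripts and for GAPDH, a depleted one, because 8 of the 10 enriched genes with the highest IP levels had a share of lysine and glutamate codons above that of at least 93.8% of genes. Capitals mark those hexamers, which were chosen after the enriched transcripts had been seen. The window of EIF5B lies at chr2:99992847-99992906 (plus strand, exon 10), that of ZC3H13 at chr13:46543596-46543655 (minus strand, exon 14), that of GOLGA4 at chr3:37343679-37343738 (plus strand, exon 11) and that of GAPDH at chr12:6646750-6646809 (plus strand, exon 9), in GRCh37 and with exons counted as merged in the count table.
EIF5B: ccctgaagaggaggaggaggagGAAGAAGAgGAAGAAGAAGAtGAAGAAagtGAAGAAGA
ZC3H13: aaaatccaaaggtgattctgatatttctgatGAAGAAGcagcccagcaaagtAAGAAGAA
GOLGA4: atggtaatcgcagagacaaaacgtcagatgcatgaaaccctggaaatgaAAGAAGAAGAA
GAPDH: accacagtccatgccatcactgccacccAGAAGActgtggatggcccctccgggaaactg

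Over the whole exonic sequence EIF5B held 74 of these hexamers against 7 of their reverse complements, GOLGA4 89 against 14, ZC3H13 49 against 15, and GAPDH 2 against 2. Per kilobase that places EIF5B above 99.7% of the genes tested, GOLGA4 above 99% and ZC3H13 above 96.4%, while GAPDH was above 29.3%. RBM25, NSRP1, CENPF and ANKRD11, also leading in IP, were above 99.6%, 96.9%, 95.6% and 95.2%. RPLP2 and PTMA were above 99.6% and 99.2%, yet their IP was not above IgG (log2 -0.00 and -1.13). PALM3 was above only 88.4%, and XIST, another leading transcript, held 28 hexamers against 25. A high density therefore did not by itself mark transcripts that were higher in IP than in IgG.

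The genes called higher that reached the highest IP levels included CENPF, NSRP1, GOLGA4, RBM25 and ANKRD11. CENPF, a kinetochore protein of long coiled coils, was at 51.4, 49.0 and 50.9 CPM in input, at 3928, 4293 and 4355 CPM in IP and at 166 and 196 CPM in IgG. ANKRD11, a large chromatin regulator, went from 14.7, 17.5 and 17.5 CPM in input to 3402, 3685 and 3893 CPM in IP, with 147 and 174 CPM in IgG. In both, IP lay above IgG and IgG above input with no overlap. Enrichment over input was 6.38 on the log2 scale for CENPF (SE 0.0679, edgeR adjusted p = 1.4e-27) and 7.78 for ANKRD11 (SE 0.0833, adjusted p = 1.4e-27). Nestin (NES), an intermediate filament protein, rose from 1.43 to 2.36 CPM in input to 363 to 389 CPM in IP, a log2 enrichment of 7.72 (SE 0.108, adjusted p = 9.99e-26).

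RPLP2 and PTMA also stood among the 10 highest IP levels of the enriched genes, with another pattern. RPLP2, an acidic protein of the ribosomal stalk, was at 1719.9, 1812 and 1755 CPM in input, at 7493, 7915 and 8313 CPM in IP and at 7609.6 and 8228 CPM in IgG. Its IP and IgG libraries overlapped, and IP over IgG was -0.00 on the log2 scale (edgeR adjusted p = 0.983). PTMA, prothymosin alpha, reached 4764 to 5781 CPM in IP from 1931 to 2260.5 in input, and was higher still in IgG, at 10660.2 and 12721 CPM (IP over IgG -1.13, adjusted p = 1.7e-12). Reads of transcripts with many processed pseudogenes, such as PTMA and ribosomal protein genes, were kept only where they mapped uniquely.

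**Figure D1:**
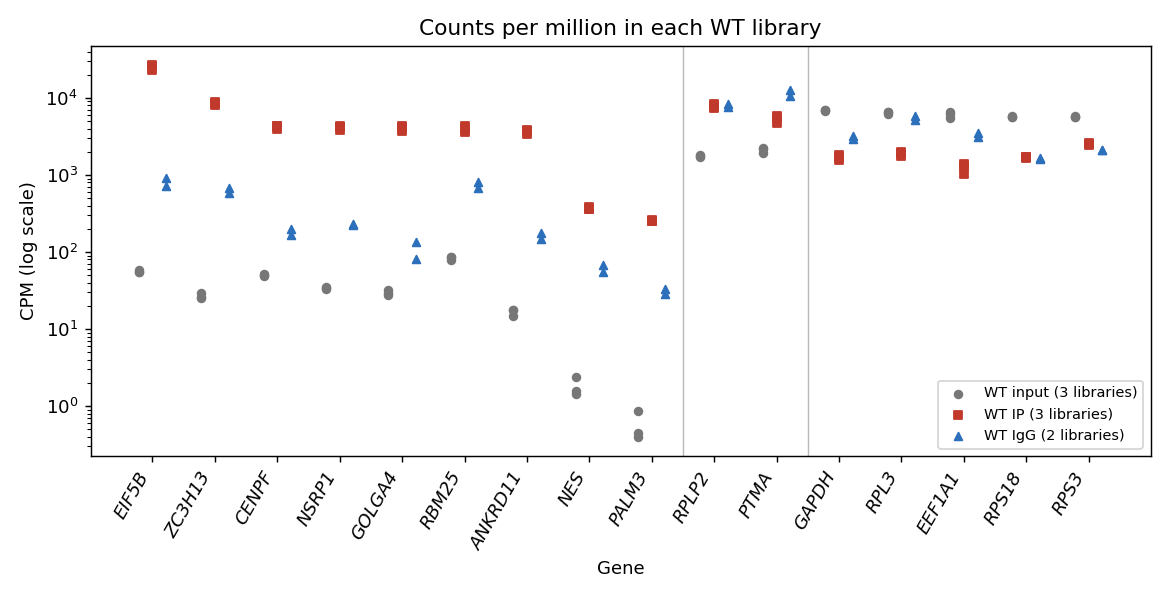
CPM (log axis) of 16 genes in each of the 3 WT input (grey circles), 3 WT IP (red squares) and 2 WT IgG (blue triangles) libraries, 1 point a library. From EIF5B to PALM3 the IP points lie above IgG and IgG above input. For RPLP2 and PTMA, IgG is level with or above IP, and for GAPDH to RPS3 the IP points lie below input.

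The depleted side was led in mass by housekeeping transcripts. GAPDH, a glycolytic enzyme, was at 6834, 6991 and 6875 CPM in input, at 1821, 1692 and 1563 CPM in IP and at 3194 and 2975 CPM in IgG. EEF1A1, the factor that brings aminoacyl-tRNA to the ribosome, was at 5444, 6567 and 6172 CPM in input and at 1045, 1309 and 1382 CPM in IP. RPL3, a protein of the large ribosomal subunit, stood at 6275 to 6602 CPM in input and 1775 to 1974 CPM in IP. No IP library of these genes reached its input range, and the log2 changes were -2.03 for GAPDH, -2.28 for EEF1A1 and -1.77 for RPL3 (edgeR adjusted p = 6.66e-21, 2.88e-18 and 8.47e-20). On a per-length scale, GAPDH was at 4286 CPM per kilobase in input against 12 for EIF5B, and in IP at 1051 against 5406 for EIF5B, so the order of these transcripts was turned around by the pull-down.

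Some transcripts of moderate input level were almost missing from IP. KAT5, a histone acetyltransferase, was at 25.2, 28.2 and 29.9 CPM in input and had at most 3 counts in each IP library, at least 197-fold lower, the bound being set by 3 counts per IP library. It had 0 counts in both IgG libraries too, and it shares exonic bases with RNASEH2C, whose reads cannot be told apart from its own if strand was not used. EAF2, a partner of the elongation factor ELL, was at least 81.1-fold lower in IP than its 10.8, 11 and 12.4 CPM in input, and here IgG kept 10.2 and 5.35 CPM. Of the genes called lower, 405 were at or under 3 counts in all 3 IP libraries, and of those called higher 237 were so in all 3 inputs. The fitted fold changes of such genes depend on the prior count.

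Functional classes were then described with 41 lists, 3 of which are checks on the cell line or the study's own qPCR panel. For each list the count of members called is read against the 30.2% and 27.3% called among all genes, and the median against 0.01. Between the 3 IP libraries a list median varied by at most 0.29 on the log2 scale where 10 or more members were tested, with a median range of 0.07. All 41 lists were chosen with earlier results of these data known.

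Chromatin remodellers, the ATP-dependent enzymes that move nucleosomes and their partners, were mostly enriched. All 34 listed genes were tested, 27 were higher, SMARCB1 was lower (-1.33, adjusted p = 8.25e-16, named after its value was seen) and the median was 2.33, beside 1.72 for IgG over input. ATRX, a remodeller of repeats and telomeres, was at 37.9, 42.5 and 42.1 CPM in input and at 1966, 2152 and 2193 CPM in IP, a log2 enrichment of 5.68 (SE 0.0657, edgeR adjusted p = 3.24e-27). IgG held ATRX at 126 and 138 CPM, above input and well below IP. BAZ1B, a bromodomain protein of the WICH complex, was enriched by 5.13 on the log2 scale (SE 0.0651). These transcripts are long, with a median exonic length of 7667 bases. After the trend with length was removed, 24 of them were still called higher and the median was 1.65.

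Histone lysine methyltransferases and demethylases moved in the same direction, with 29 of 45 higher, 5 lower and a median of 1.14. Here IgG over input had a median of 1.19, and IP over IgG one of 0.17. SETD1A, a histone H3 lysine 4 methyltransferase, was at 6.8, 5.39 and 6.9 CPM in input, at 120.1, 99.2 and 109 CPM in IP and at 78.9 and 80.3 CPM in IgG. MLL4, of the same enzyme family, was at 4.47 to 4.91 CPM in input and 96.1 to 103 CPM in IP, and in IgG at 115 and 109 CPM, above all 3 IP libraries. With the length trend removed, 15 of the 45 were called higher and the median fell to 0.47. Among 16 acidic histone chaperones 10 were higher and 3 lower (median 1.23), while IgG over input had a median of 1.62. CHAF1A, a chromatin assembly factor, was at 26.6 to 28.3 CPM in input, 803 to 854 CPM in IP and 502 and 566 CPM in IgG.

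RNA-processing factors followed. Of 54 SR and SR-related splicing factors, proteins with arginine- and serine-rich tails that define exons, 27 were higher and 4 were lower, with a median of 1.07 (IgG over input 0.81). RBM25 was at 78.6, 85.2 and 86.5 CPM in input and at 3565, 4012 and 4282 CPM in IP, an enrichment of 5.57 (SE 0.0749, edgeR adjusted p = 5.27e-26). PPIG, a cyclophilin of nuclear speckles, was at 44.3, 47.6 and 45.3 CPM in input and at 2078, 2331 and 2383 CPM in IP. Neither gene's IP and input libraries came near each other. CLK4, a kinase of SR proteins, went the other way (-3.04, adjusted p = 1.5e-14, named after its value was seen). The heterogeneous nuclear ribonucleoproteins had 10 of 22 higher and 4 lower (median 0.88, IgG over input 0.96). HNRNPD, which binds AU-rich RNA, was enriched 11-fold, from 63.6 to 67.6 CPM in input to 701 to 750.4 CPM in IP. Core snRNP and LSM proteins, which are short, had 2 of 20 tested higher and 3 lower, with a median of -0.57 (IgG over input 0.11), and 1 of 21 listed genes was not found in the table under the symbols searched.

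The m6A machinery and nonsense-mediated decay had shares called higher near that of all genes and fewer called lower. Of 18 m6A writers, erasers and readers 6 were higher (33.3%) and 1 lower (5.56%), with a median of 0.11. IgG over input had a median of 1.0 for them, with 9 higher, and IP over IgG one of -0.44. The gene called lower was METTL3, the catalytic subunit (-3.53, edgeR adjusted p = 1.41e-16). METTL3 fell from a mean of 61.5 CPM in input to 5.32 CPM in IP and 0.233 CPM in IgG, and it overlaps TOX4 on the opposite strand. Its partner ZC3H13, described above, lay at the other extreme of the list. Of 16 factors of nonsense-mediated decay and the exon junction 5 were higher and 3 lower (median 0.47, IgG over input 0.83). UPF3B, which links the exon junction complex to UPF2, was at 66.2, 59.6 and 62.6 CPM in input, at 2117, 2393 and 2465 CPM in IP and at 469 and 519 CPM in IgG.

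Long structural proteins were mostly enriched too. Giant cytoskeletal linkers, such as plakins, spectrins and nesprins, had 17 of 20 members higher and none lower (median 2.33, IgG over input 1.03). In the 6 libraries AHNAK, a giant scaffold protein, was at 11.5, 11 and 11.7 CPM in input and at 465, 461 and 472 CPM in IP. IgG held AHNAK at 26.8 and 24.5 CPM, and IP over input was 5.35 (SE 0.0643, edgeR adjusted p = 6.98e-27). SYNE2, a nesprin that ties the nucleus to actin, was enriched by 4.27 on the log2 scale over input and by 4.03 over IgG. The median exonic length of this list was 12728 bases, and with the length trend removed 11 were called higher (median 1.43).

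Golgins, the coiled-coil tethers of the Golgi, had 8 of 14 higher and GOLGA5 lower (median 1.14, IgG over input 0.92), and 5 higher with the length trend removed. GOLGB1 was at 21.5, 24.2 and 22.7 CPM in input, at 2195, 2444 and 2498 CPM in IP and at 107 and 122 CPM in IgG. Centrosome and centriolar satellite proteins had 17 of 38 higher and 2 lower (median 0.69, IgG over input 0.74), and 16 higher and 3 lower with the length trend removed (median 0.25). AKAP9, a scaffold of the centrosome and Golgi, was at 18.6 to 19.5 CPM in input and at 1821 to 2019 CPM in IP, 101-fold higher. CEP290, a protein of the ciliary transition zone, was 131-fold higher. In these lists a few members lay far above the rest, as the upper quartiles in the plot of list medians show. Kinesins, microtubule motors, had 17 of 41 tested higher and 4 lower, with a median of 0.85 (IgG over input 0.13), and 2 listed kinesins did not pass the filter on low counts. With the length trend removed 13 kinesins were higher and 6 lower (median 0.40). SMC complexes and cohesin regulators had 8 of 23 higher and 3 lower (IgG over input 0.50), and their median of 0.32 turned to -0.14 with the length trend removed.

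**Figure D2:**
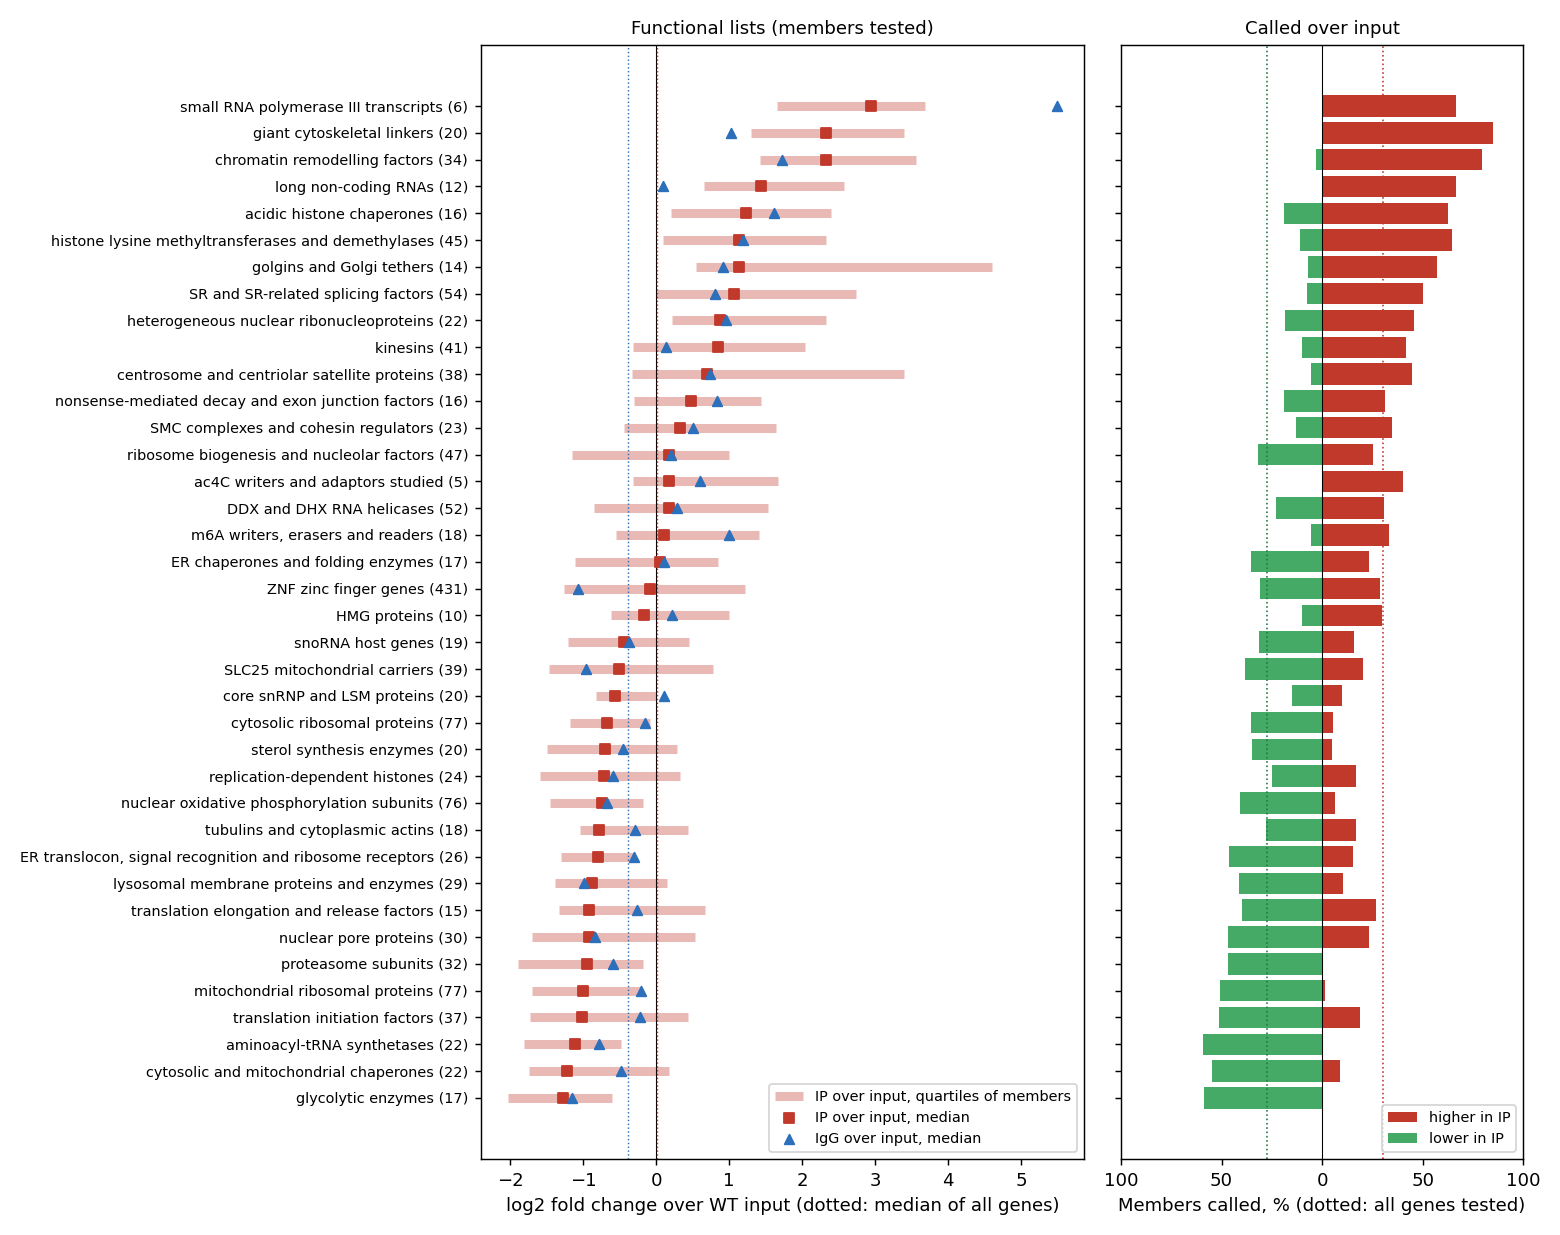
Left, the median log2 fold change of each functional list for IP over input (red squares, bar for the quartiles of members) and IgG over input (blue triangles). Right, the percent of tested members called higher (red) or lower (green) in IP, with dotted lines at the 30.2% and 27.3% of all genes. Giant linkers and chromatin remodellers have the most calls upward, and glycolytic enzymes, aminoacyl-tRNA synthetases and chaperones the most downward.

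Long non-coding RNAs had a lower IgG median than most enriched classes, with kinesins close to them at 0.13. Of 15 listed, 12 were tested, 8 were higher and none lower, with a median of 1.44 for IP over input and 0.09 for IgG over input. Members did not all follow that IgG median, as 4 of the 12 were called higher and 1 lower in IgG, beside 24.4% and 36.6% of all genes. NEAT1, the scaffold RNA of paraspeckles, was at 9.6, 9.07 and 9.34 CPM in input, at 352, 343 and 344 CPM in IP and at 17 and 14 CPM in IgG. Its enrichment was 5.21 on the log2 scale over input (SE 0.0706, edgeR adjusted p = 5.83e-26) and 4.48 over IgG. KCNQ1OT1, an imprinted antisense transcript, went from 2.54 to 2.98 CPM in input to 69.9 to 74.2 CPM in IP, with 2.84 and 3.14 CPM in IgG. For KCNQ1OT1 IgG thus overlapped input, although reads from KCNQ1, within which it lies, cannot be told apart without strand. MALAT1, an abundant speckle RNA, was at 119 CPM in input, 1402 CPM in IP and 500.2 CPM in IgG (group means). XIST was at means of 671 CPM in input, 3132 CPM in IP and 1014 CPM in IgG, so IgG lay above input for both.

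Small RNAs made by RNA polymerase III showed the reverse order. Of 12 listed, 6 were tested and 4 were higher in IP, with a median of 2.95, while IgG over input had a median of 5.49. The median input level of these 6 was only 0.243 CPM, and 3 of them had a mean of at least 50 counts, so the folds are uncertain. BCYRN1 is the symbol of BC200, a neuronal RNA derived from an Alu element. The bases counted under it were at 0.364, 0.254 and 0.348 CPM in input, from 9 to 11 counts per library. They were at 7.95, 9.92 and 10.1 CPM in IP and at 18.7 and 15.6 CPM in IgG. For BCYRN1, IP over IgG was -0.88 on the log2 scale (edgeR adjusted p = 0.000351). The 191 exonic bases counted as BCYRN1 are spread over chrX:70430035-70948962 (GRCh37), a span far longer than a small RNA. These counts therefore cannot be taken as levels of BC200 itself.

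Lists of protein synthesis had more members lower than higher. Of 79 cytosolic ribosomal protein genes 77 were tested, 4 were higher and 27 lower, with a median of -0.68 (IgG over input -0.16). These transcripts are short, with a median exonic length of 826 bases. With the length trend removed 18 of the 77 were lower and the median was -0.39, beside 4037 of all 14751 genes lower. The 4 higher were RPLP2, described above, and RPS28, RPL36A and RPS10, named after their values were seen. RPL36A and RPS10 share exons with the readthrough genes RPL36A-HNRNPH2 and RPS10-NUDT3. RPS28, a protein of the small subunit, was at a mean of 1074 CPM in input, 3066 CPM in IP and 1069 CPM in IgG. Mitochondrial ribosomal proteins had 39 of 77 lower and 1 higher, with a median of -1.01 (IgG over input -0.21). With the length trend removed 28 of them were lower (median -0.73). MRPL3 was at 409.7, 411 and 414 CPM in input, at 37.9, 42.2 and 38.1 CPM in IP and at 105 and 99.6 CPM in IgG. Aminoacyl-tRNA synthetases and their scaffolds, which charge tRNA, had 13 of 22 lower and none higher (median -1.12, IgG over input -0.78). In this list 13 were lower with the length trend removed as well (median -1.10). AIMP2, a scaffold of that complex, changed by -4.12 on the log2 scale (SE 0.0929, edgeR adjusted p = 7.93e-22), and it overlaps EIF2AK1.

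Translation initiation factors were split. Of 39 listed, 37 were tested, 19 were lower and 7 higher, with a median of -1.02 (IgG over input -0.22). EIF3M, a subunit of the eIF3 complex, was at 488, 493 and 489 CPM in input, at 68.9, 69.5 and 69.5 CPM in IP and at 288 and 228 CPM in IgG. The members called higher included EIF5B and, named after their values were seen, EIF3A and EIF4G1. EIF3A, the largest eIF3 subunit, was at a mean of 103 CPM in input, 1663 CPM in IP and 558 CPM in IgG, an enrichment of 4.02 (SE 0.0513, edgeR adjusted p = 1.94e-26). EIF4G1, the scaffold of the cap-binding complex, was enriched by 2.37 (SE 0.0538). Subunits of eIF3 thus lay at both ends of the list.

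The endoplasmic reticulum gave a second split list. Of 26 genes of the translocon, signal recognition and ribosome receptors, 12 were lower and 4 higher (median -0.80, IgG over input -0.30). SRP9, a protein of the signal recognition particle, was at 868, 873 and 907 CPM in input and at 77.0, 85.7 and 81.9 CPM in IP. TRAM1, a translocon partner, was at 138 to 141 CPM in input, 12.3 to 14.6 CPM in IP and 76.4 and 77.6 CPM in IgG. The 4 higher were RRBP1, which the study followed by qPCR as a highly acetylated transcript, and KTN1, SEC63 and SEC62, named after their values were seen. RRBP1 and KTN1 encode a ribosome-binding protein and a kinesin anchor, both with long coiled coils, and KTN1 went from a mean of 54.5 CPM in input to 812 CPM in IP, with 238 CPM in IgG. ER chaperones and folding enzymes had 4 of 17 higher and 6 lower (median 0.05, IgG over input 0.10, with 3 lower once the length trend was removed).

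**Figure D3:**
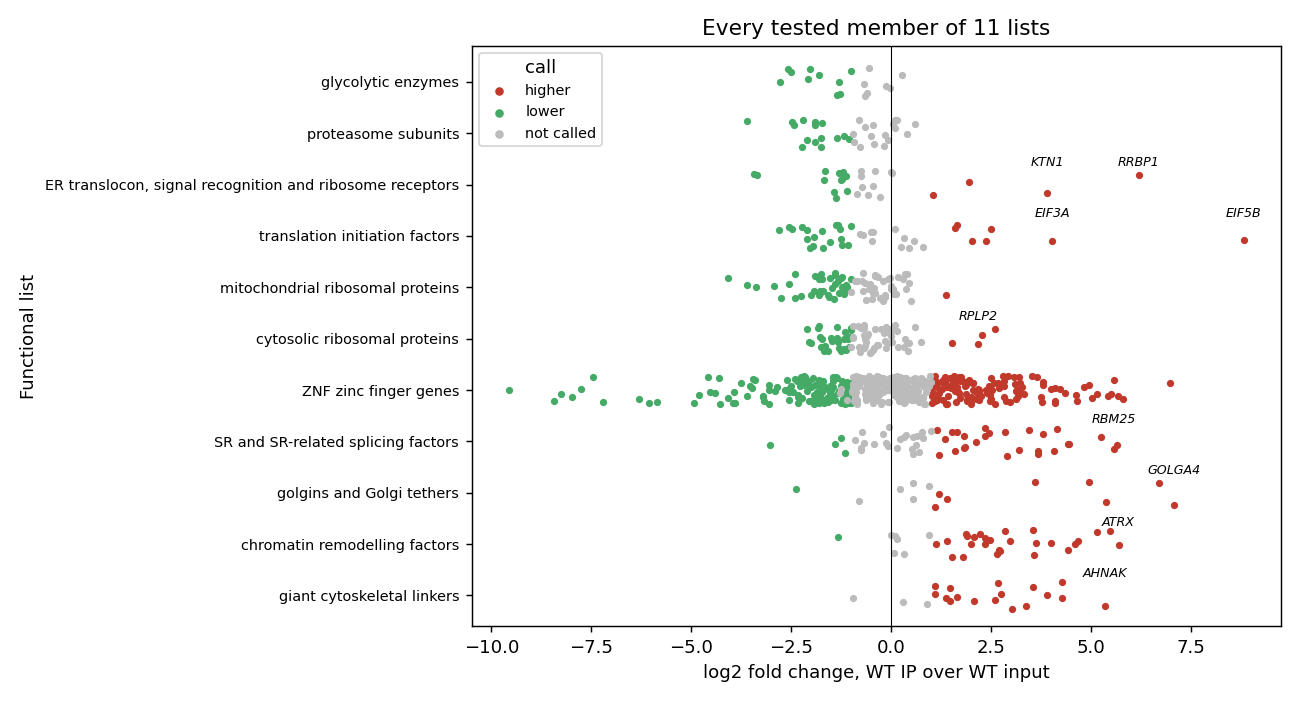
Each point is a tested member of 1 of 11 lists, placed by its log2 fold change of WT IP over WT input and coloured by its call (red higher, green lower, grey not called), with vertical scatter only for display. EIF5B, EIF3A, RRBP1, KTN1 and RPLP2 lie apart from the other members of lists whose medians are below 0.

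Lists of energy metabolism and protein turnover had more members lower than higher. Glycolytic enzymes had 10 of 17 lower and none higher (median -1.28, IgG over input -1.16). PGK1, phosphoglycerate kinase, was at 1294, 1337 and 1332 CPM in input, at 229, 222 and 212 CPM in IP and at 321 and 283 CPM in IgG. Nuclear-encoded subunits of oxidative phosphorylation had 31 of 76 lower, 5 higher and 40 not called (median -0.75, IgG over input -0.67). SDHD, a membrane anchor of complex II, was at 254, 248 and 252 CPM in input and 16.9, 17.4 and 15.9 CPM in IP, and IgG was lower still, at 12.7 and 9.3 CPM. Proteasome subunits had 15 of 32 lower, none higher and 17 not called (median -0.95, IgG over input -0.59). PSMA2, of the 20S core, was lower 5.57-fold, with 625 to 629.6 CPM in input and 109 to 117 CPM in IP. Cytosolic and mitochondrial chaperones had 12 of 22 lower and 2 higher (median -1.23, IgG over input -0.49), and CCT8, a subunit of the TRiC chaperonin, went from 1091 to 1174 CPM in input to 215 to 223 CPM in IP with 664 and 587 CPM in IgG.

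Further lists had medians below that of all genes. Nuclear pore proteins had 14 of 30 tested lower and 7 higher (median -0.92, IgG over input -0.84), and TPR, a coiled-coil protein of the nuclear basket named after its value was seen, was the most enriched, with 60.9 CPM in input and 670.4 CPM in IP. Lysosomal proteins had 12 of 29 lower and 3 higher over input (median -0.88), and IgG over input had a median of -0.99 with 14 lower. Set against IgG, 12 of the lysosomal genes were higher in IP and 1 was lower, with a median of 0.46 beside 0.29 for all genes. Translation elongation and release factors had 6 of 15 lower and 4 higher (-0.92, IgG over input -0.26), and 4 lower and 3 higher with the length trend removed. Sterol synthesis enzymes had 7 of 20 lower and 1 higher (-0.71, IgG over input -0.45). SLC25 mitochondrial carriers had 15 of 39 lower and 8 higher (-0.51, IgG over input -0.97). Tubulins and cytoplasmic actins had 5 of 18 lower and 3 higher (-0.78, IgG over input -0.29), and snoRNA host genes 6 of 19 lower and 3 higher (-0.44, IgG over input -0.38). Of 73 replication-dependent histone genes, whose mRNAs lack a poly(A) tail, 24 were tested, 6 were lower and 4 higher (-0.72, IgG over input -0.59).

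Several classes were near the background in both directions. The 431 tested ZNF genes of 529 had 124 higher and 133 lower, 28.8% and 30.9%, with a median of -0.08 whose sign depended on the scaling, at 0.03 with total counts and at 0.16 with the GC trend removed. IgG over input had a median of -1.07 for the same genes. DDX and DHX helicases had 16 of 52 higher and 12 lower (median 0.17, IgG over input 0.29). Ribosome biogenesis factors had 12 of 47 higher and 15 lower (IgG over input 0.20), with a median of 0.18 that became -0.38 when the GC trend was removed. HMG proteins had 3 of 10 higher and 1 lower (median -0.17, which became 0.37 with the GC trend removed, and IgG over input 0.22), and HMGN5, a nucleosome-binding protein with a long acidic tail, was 116-fold higher. The writer of ac4C was not called in either direction. NAT10 was at a mean of 57.0 CPM in input and 64.6 CPM in IP (log2 0.18, SE 0.0953, edgeR adjusted p = 0.0839), and neither THUMPD1 (-0.32), its adaptor, nor TARDBP (-0.49) passed the 2-fold threshold. PCBP1 and PCBP2, poly(C)-binding proteins, were higher by 2.35 and 1.67, and in IgG over input by 2.66 and 2.34.

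Base composition was then set against enrichment, across genes, which are not independent replicates. Exon sequence was available for 14597 tested genes. The Spearman rank correlation of log2 IP over input was 0.36 with GC content, -0.38 with the share of T, 0.34 with that of C, 0.34 with that of G and -0.29 with that of A. For IgG over input the value with GC content was 0.10. From the lowest to the highest of 5 equal classes of GC content the median enrichment went from -0.77 to 1.21, and the share called higher from 15.5% to 53.8%. In the 1% of genes with the highest GC content, at least 68.2%, the median was 3.39 and 84.2% were called higher, while IgG over input had a median of 1.66.

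Length had a weaker relation that IgG shared. The rank correlation with exonic length was 0.20 for both IP over input and IgG over input, with medians of the outer length classes from -0.48 to 0.72 for IP and from -0.88 to 0.46 for IgG. The share of purines (A and G) gave no overall trend (rank correlation -0.02), yet its upper end stood out. The 1% of genes with at least 58.4% purines had a median of 2.22, 69.2% of them were called higher and 28.8% were enriched more than 16-fold. IgG over input had a median of 1.07 in those genes. Purine share, lysine and glutamate codons and the hexamers were looked at after the most enriched genes had been seen, so they are descriptions of them.

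**Figure D4:**
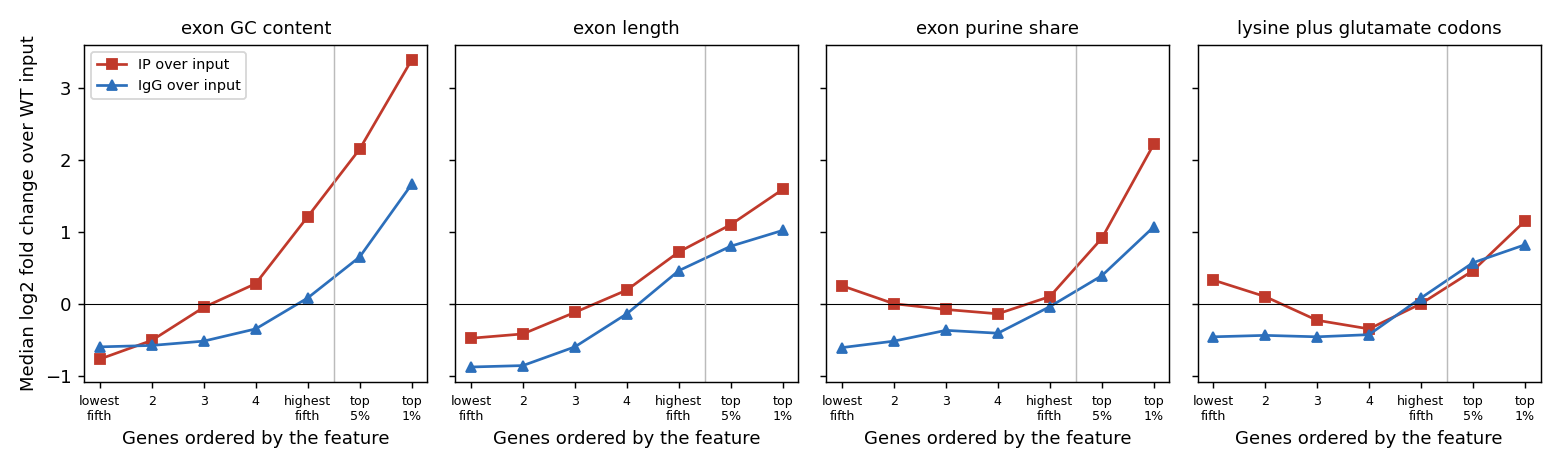
Median log2 fold change over WT input for genes ordered by exon GC content, exon length, exon purine share and percent of lysine plus glutamate codons, in 5 equal classes and in the top 5% and 1% (right of the grey line), for IP (red squares) and IgG (blue triangles). GC content gives the steepest rise for IP, to 3.39 in the top 1%, and the purine share rises at its upper end.

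Codons gave a similar picture. Lysine and glutamate codons together made up a median of 12.7% of codons, and the median enrichment over 5 classes of equal size by that share was 0.33, 0.10, -0.23, -0.35 and -0.00. In the top 1%, at 26.5% or more, it was 1.15, and 53.0% were called higher. IgG over input had a median of 0.82 in those genes, and IP over IgG one of 0.31, beside 0.29 for all genes. The 2 kinds of codon differed when taken apart. The top 1% by lysine codons had a median of -0.12 for IP over input, with 24.2% called higher. By glutamate codons the top 1% had a median of 1.21, with 54.5% called higher. Among transcripts with a GC content under 45%, the 223 richest in these codons had a median of 0.61, against -0.78 for the other 4236, and 12.6% against 1.25% were enriched more than 16-fold. In IgG over input the same 2 sets had medians of 0.54 and -0.61. In the top 1% by density of the GA hexamers (11.3 per kilobase or more) 37.7% were called higher, beside 30.2% of all genes, and 8.9% were enriched more than 16-fold, beside 4.12% of all genes. In the top 5% that share was 10.3% for the hexamers and 9.55% for lysine plus glutamate codons. The hexamer top 1% had a median of 0.43 for IP over input and 0.77 for IgG over input. IP over IgG had a median of -0.29 there, beside 0.29 for all genes. In the hexamer top 5% these 3 medians were 0.31, 0.32 and 0.12.

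Of 467 genes with a coding sequence that were enriched more than 16-fold, 59.5% had a GC content of 55% or more, 23.1% one of 45% to 55% and 17.3% one under 45%, against 33.8%, 32.4% and 33.8% of all genes with a coding sequence. The 81 under 45% had a median of 20% lysine plus glutamate codons, a median length of 4268 bases and a median input level of 3.87 CPM. They summed to 1335 CPM in input and 90411 CPM in IP, EIF5B and ZC3H13 included. The 278 at 55% or more had a median of 10.3% of those codons, a median length of 2578 bases and a median input level of 0.306 CPM, which is near the lower limit of counting. These summed to 677 CPM in input and 23102 CPM in IP. ANKRD11 had the highest IP level among the GC-rich genes with enough counts, and its coding window of highest GC content (81.7%, chr16:89346123-89346182, minus strand, exon 13, GRCh37) is given beside the purine-rich windows above as an example of the other composition.
ANKRD11: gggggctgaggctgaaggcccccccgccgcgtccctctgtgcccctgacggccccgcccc

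The sequence TCCCAGCT, which the study took up as a motif of acetylated transcripts, was searched on the sense strand of exons. It occurred in 19.7% of all tested genes, in 25.4% of those called higher and in 12.3% of those called lower. Its reverse complement AGCTGGGA occurred in 19.6%, 23.1% and 14.9%, and TGTGCG, a UG-rich motif that the study also named, in 31.0%, 39.0% and 21.6%. Longer genes hold any word more often, and per kilobase TCCCAGCT was found 0.0816 times in genes called higher and 0.0479 times in genes called lower, against 0.0698 and 0.0593 for its reverse complement. In each of 5 equal classes of exonic length, genes with TCCCAGCT had the higher median, such as 0.23 against -0.19 in the middle class. So had genes with each of the other words. IgG shared the difference. Genes with TCCCAGCT had a median of 0.54 for IP over input, against -0.12 without it, and for IgG over input 0.08 against -0.51. For TGTGCG the medians were 0.46 against -0.20 in IP and -0.05 against -0.54 in IgG. For AGCTGGGA they were 0.36 against -0.07 and -0.13 against -0.45.

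Some of the 3696 matches lay in a repeated context. The 2 most frequent contexts of 20 bases, with 131 and 125 copies or 6.93% of the matches, are printed below. Beside them is the stretch counted as BCYRN1 that holds the motif (chrX:70948921-70948940, minus strand, GRCh37), because it shares most of its letters with the contexts. Capitals mark the motif.
context with 131 copies: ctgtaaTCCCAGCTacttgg
context with 125 copies: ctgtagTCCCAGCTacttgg
BCYRN1: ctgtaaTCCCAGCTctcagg

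Genes whose exons shared at least 10 words of 12 bases with the first 120 bases counted as BCYRN1 numbered 690. That comparison was made after the contexts had been seen. These 690 genes made up 4.73% of all genes tested, 6.76% of those called higher and 2.05% of those called lower, with a median of 0.79 for IP over input and 0.70 for IgG over input. IP over IgG had a median of 0.03 in these genes, beside 0.29 for all genes. The 638 genes that held the same words in antisense had medians of 0.47 for IP over input and 0.11 for IgG over input. A match is a description of letters, not of binding or acetylation at that place.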

How the data were processed

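Poly(A) RNA of WT HEK293T cells was profiled as 3 input, 3 anti-ac4C IP and 2 IgG libraries made by oligo(dT)-primed Smart-seq2 amplification, and an ac4C spike-in RNA was not used here. The authors trimmed reads with Trim Galore 0.6.7, aligned them with STAR 2.7.10a to hg19 per the study's methods and counted unique reads per gene with featureCounts 2.0.2 (versions per the submitters' processing notes), and deposited raw counts. The use of strand in counting is not given in the sources used here, and counts of 1 to 20 were mostly even (81.3% to 95.6% per library), as counting both mates of a pair gives. Gene coordinates matched GRCh37 for 99.58% of 19120 gene symbols shared with GENCODE v44, from which exon and coding sequences were read.

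Counts of the 8 libraries were filtered (edgeR filterByExpr, minimum 10), scaled by TMM and tested in 1 fit with edgeR 4.0.16 (R 4.3.3, quasi-likelihood F test, Benjamini-Hochberg over 14751 genes). Genes were called at an adjusted p of 0.05 and a fold change over 2. The script was tested on simulated data with far fewer changed genes than were called here, so that test does not cover so wide a change. CPM values use TMM-scaled totals. Alternatives were DESeq2 1.42.0, limma 3.58.1 on log2(FPKM + 1), other scalings and filters, halved counts, removal of GC or length trends, a replicate block and leaving out each library. Where all libraries of a group had at most 3 counts, folds are bounds at 3 counts per library.

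The members and lists were chosen with earlier results of these data known. Genes named were EIF5B, PALM3 and ZC3H13, the 10 highest IP levels among genes called higher, the 5 highest input levels among genes called lower, the 5 largest changes each way among genes that averaged 100 counts or more and whose groups did not overlap, the 2 most changed members of each list in its main direction, and the study's qPCR transcripts, with some left out for space. Others are marked in the text. A marker gene of another cell type is not reported here.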

Additional observations from a re-analysis of the deposited data

How the results depend on the processing

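The 97 genes named by rule kept their direction and their side of the threshold under every alternative tried on log2 IP over input. Most had been picked for a large change or a high level, which largely set that outcome. It does not speak for the other genes called. Counts of called genes moved by over 1.5 times in these cases. With limma on log2(FPKM + 1), 2508 genes were lower in IP than input (4026 with edgeR), 3379 lower in IgG than input (5400), 3318 higher in IP than IgG (5186) and 1684 lower (2629), the cause of which was not tested. IP over IgG gave 4232 genes lower with the GC trend removed and 4308 with the length trend removed. Both steps centre all genes and moved the median of all genes alike, by -0.47 and -0.465. Leaving out each library in turn gave 4368 to 4553 genes higher and 3893 to 4211 lower in IP than input. With the replicate number as a block, 4393 were higher and 3988 lower. Same-numbered input and IP libraries did not deviate together (correlations of 0.00493, -0.0179 and 0.0168), and differently numbered ones gave -0.0279 to 0.0236. These values showed no sign of pairing, but noise between libraries could hide a shared source of RNA, so pairing is not settled. Of 41 list medians, these changed sign. ZNF genes (-0.08) went to 0.03 with total counts, 0.15 with a mean of at least 50 counts, 0.01 with limma and 0.16 with the GC trend removed. HMG proteins (-0.17) went to 0.37 and 0.11 with the GC and the length trend removed, SMC complexes (0.32) to -0.14 with the length trend removed, ribosome biogenesis factors (0.18) to -0.38 with the GC trend removed, and the genes of other cell types (-1.77, 4 tested) to 0.80 with a mean of at least 50 counts. Total counts moved the median of all genes by 0.104 for IP over input. Only 2 IgG libraries of lower depth limit what can be said of low transcripts there.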
